A study of Mus musculus with 16 samples.

Results

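Interferon-gamma, the genes of its receptor and the first steps of its signalling were followed through the immune cells of mouse melanomas. The 8 genes were taken by symbol from the gene tables of all 8 count matrices, which list 32285 genes each: Ifng, the antisense RNA gene Ifngas1, the receptor genes Ifngr1 and Ifngr2, the kinase genes Jak1 and Jak2, and the response genes Irf1 and Socs1. They were named as a pathway, not by a threshold on these counts. As background, interferon-gamma is a cytokine made mainly by T cells and natural killer (NK) cells, and it binds a receptor built of a ligand-binding chain (Ifngr1) and a signalling chain (Ifngr2). JAK1 and JAK2, kinases bound to these chains, then carry the signal onward, and genes such as Irf1, which encodes a transcription factor, are switched on. Socs1 is also switched on, and its protein inhibits JAK kinases and so limits the response. Tumours that lose B2m, the light chain of MHC class I, cannot show peptides to CD8 T cells in the usual way. CD40 is a receptor on antigen-presenting cells that an agonist antibody can trigger.

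B16 melanoma cells of the line Bro4.1, either control cells or cells without B2m, were placed under the skin of C57BL/6J mice, 1000000 cells each. The mice received 100 mcg of anti-CD40 or of a rat IgG2a isotype antibody on days 6, 9 and 12, and tumour immune cells were taken on day 14. Cells of each mouse carried a hashtag antibody, and the mice of 1 group were pooled on a droplet lane for 3' single-cell RNA sequencing. The groups are named control isotype (5 mice, 2 pools), control CD40 (2 mice, 1 pool run on 2 lanes as technical replicates), B2m-null isotype (5 mice, 2 pools) and B2m-null CD40 (4 mice, 2 pools). The number of mice was taken from the hashtags in the matrices: the labels list 3 hashtags for every pool, while 2 of the 8 matrices used here hold 3 and 6 hold 2. The sample labels write the B2m genotype on the mouse and the design text writes it on the tumour cells; the design text was followed. All 4 groups share the host strain and the tumour line, and whether the tumour cells were 1 clone is not given in the sources used here. The single control CD40 pool means that its treatment and its pool cannot be told apart, and mice of a pool share a lane, so p-values reflect the spread between mice and may miss part of the spread between pools.

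B2m was checked first. Melanoma cells carried along in the preparation held 1065 to 2135 B2m counts per 1000000 counts (CPM) in the 4 control lanes and 192 to 451 CPM in the 4 B2m-null lanes, so the groups did not overlap. The lanes held 45985739 to 99264875 counts of unique molecular identifiers (UMIs). Of 116552 barcodes, 8567 carried 2 hashtags and were removed as doublets, 21897 could not be given to a mouse, and 73440 passed the filters. The share of barcodes given to a mouse was lowest in B2m-null isotype replicate 1, at 28.8%, next in B2m-null CD40 replicate 1, at 54.3%, and 72.7% to 91.0% in the other 6 lanes. Any pair of lanes shared 41 to 92 barcodes, which were not removed. Cells were grouped by clusters and named from markers: CD8 T-like, CD4 T-like, regulatory T-like, gamma-delta T-like, NK-like, B-like, plasmacytoid DC (pDC)-like, cDC1-like, cDC2-like, mature DC-like, monocyte or macrophage-like and neutrophil-like, written below without the ending. These are rebuilt names, and clusters that mixed T cell and myeloid transcripts were kept apart. Counts were summed per mouse and class where the class had at least 20 cells. CPM values are counts per total, without the scaling between mice used in the fits. Fitted changes can therefore differ from the ratios of the CPM listed.

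The 8 genes lie on 5 chromosomes of the mouse assembly GRCm38. Ifng (ENSMUSG00000055170, protein-coding) lies at chr10:118441046-118445892 on the plus strand. Ifngas1 (ENSMUSG00000112230, a long intergenic non-coding RNA) lies at chr10:118502035-118556525 on the minus strand, 56.1 kb beyond the end of Ifng, so the genes do not overlap. Ifngr1 lies on the same chromosome at chr10:19591949-19610229, Ifngr2 at chr16:91547072-91565623, Jak1 at chr4:101152367-101265282, Jak2 at chr19:29251828-29313080, Irf1 at chr11:53770014-53778374 and Socs1 at chr16:10782240-10785536. The 250 bases before each RefSeq start were searched on both strands, in all 8 genes. The patterns were the gamma-activated sequence TTCNNNGAA and the interferon-stimulated response core GAAANNGAAA. Irf1 and Socs1, the response genes whose changes in myeloid cells are described below, each held a match. Irf1 has 2 RefSeq starts, and the window of the second (chr11:53770223-53770472) held neither pattern. The windows of Irf1 and Socs1 with a match are printed from RefSeq on GRCm38.p6, 5' to 3' on the gene's strand, with the matches in capitals. The window of Ifng also held a match, given below, and is not printed.
Irf1 (chr11:53769764-53770013, plus): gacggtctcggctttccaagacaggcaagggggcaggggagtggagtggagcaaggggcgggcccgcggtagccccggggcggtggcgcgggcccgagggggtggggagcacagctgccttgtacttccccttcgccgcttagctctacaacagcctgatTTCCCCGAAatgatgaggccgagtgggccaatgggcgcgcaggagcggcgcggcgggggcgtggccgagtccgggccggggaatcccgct
Socs1 (chr16:10785537-10785786, minus): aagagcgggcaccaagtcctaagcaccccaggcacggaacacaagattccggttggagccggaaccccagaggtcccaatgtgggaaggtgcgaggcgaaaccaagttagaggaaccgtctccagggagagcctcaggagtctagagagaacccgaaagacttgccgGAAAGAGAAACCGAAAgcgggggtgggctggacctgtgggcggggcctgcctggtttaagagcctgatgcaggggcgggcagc
The Irf1 match is TTCCCCGAA, starting 90 bases before its first start. Socs1 holds 2 overlapping matches, GAAAGAGAAA and GAAACCGAAA, starting 83 and 77 bases before its start. Ifng held TTCAGAGAA at 249 bases before its start, and the windows of Ifngas1, Ifngr1, Ifngr2, Jak1 and Jak2 held neither pattern. Of 32851 RefSeq windows of this length, 7.02% held the first pattern and 2.98% the second. A match describes letters in the window and is no evidence of binding.

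Ifng transcripts were highest in T cells and NK cells. The mean of a class, here and for the other genes below, pools all its mice, and the classes differ in their mix of groups. All pDC mice had isotype antibody and all CD4 T mice anti-CD40, and most cDC1 and mature DC mice had isotype antibody. The part of treatment in the order of classes was not tested. Over all mice with the class, the mean level was 548 ± 656 CPM in CD8 T cells (SD, n = 14 mice), 469 ± 160 in CD4 T cells (n = 4), 242 ± 111 in NK cells (n = 14) and 112 ± 64.1 in gamma-delta T cells (n = 12). The CD8 T mean includes 1 mouse at 2796 CPM, and the median was 414. Regulatory T cells had 54.9 ± 72.6 CPM and B cells 33.4 ± 43.3. Mature DCs had 90.7 CPM, but 95.8% of their Ifng counts lay in cells that also held T cell transcripts. B2m-null CD40 mouse 1 alone had 606 CPM there, with 98 of 101 counts in 1 cell and 19.2 CPM without it, while the other mature DC values were at most 103 CPM. The remaining classes had at most 4.94 CPM (pDCs), with 2.04 ± 1.35 in monocytes and macrophages. Of the 11 neighbours in this order, 1 pair differed by an exact paired permutation test within mice: NK cells exceeded gamma-delta T cells in 12 of 12 mice (adjusted p = 0.014). That call, like the 5 other calls of class order, was lost with at least 50 cells per mouse (11 of 11 mice, exact permutation, adjusted p = 0.079) and with classes set by marker-transcript gates (5 of 5 mice, adjusted p = 0.55). For this pair every mouse kept the direction in both settings. With 5 mice the test cannot pass even when all agree, so that loss does not bear on the order. The order leaves out cluster T14, led by Ccl1, Foxp3 and Penk and holding 934.5 Ifng CPM over its pooled cells. It was given no class because its regulatory T and CD8 T marker scores lay too close, so it is not part of the regulatory T value. In the same test CD8 and CD4 T cells did not differ beyond their spread (exact permutation, adjusted p = 0.31). CD4 T cells had the higher level in all 4 mice that had both, a number that cannot go below an exact p of 0.125.

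**Figure D1:**
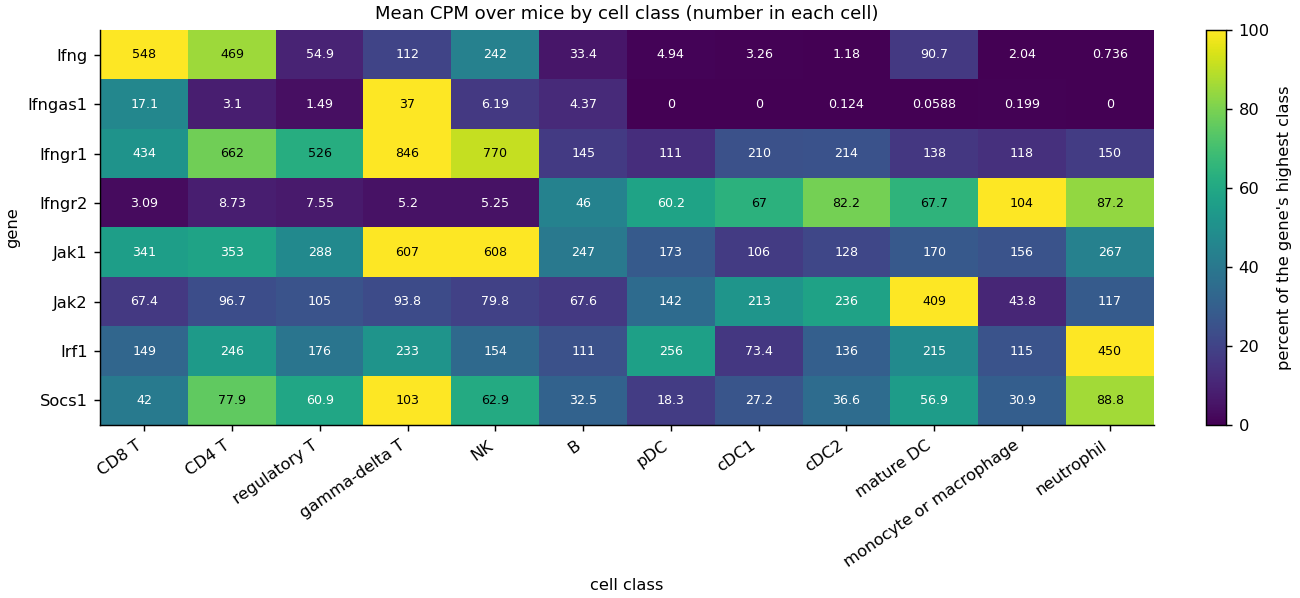
Mean CPM over mice of the 8 genes (rows) in 12 cell classes (columns); the number is the mean, and the colour is the percent of that gene's highest class. Ifng and Ifngr1 were highest in T and NK cells and Ifngr2 in myeloid cells, where Ifngr2 was 104 CPM in monocytes and macrophages against 3.09 CPM in CD8 T cells. The mix of isotype and anti-CD40 mice differs between classes.

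Ifngas1 was highest in gamma-delta T cells (37.0 ± 24.4 CPM) and next in CD8 T cells (17.1 ± 18.5), with 6.19 in NK cells and at most 1.49 CPM in the classes outside B, CD4 T, CD8 T, gamma-delta T and NK cells. The receptor chains had opposite distributions. Ifngr1, the ligand-binding chain, was 846 CPM in gamma-delta T cells, 770 in NK cells, 662 in CD4 T cells, 525.9 in regulatory T cells and 434 in CD8 T cells, against 118 in monocytes and macrophages. Ifngr2, the signalling chain, was 104 CPM in monocytes and macrophages, 87.2 in neutrophils and 82.2 in cDC2s, against 8.73 in CD4 T cells and 3.09 in CD8 T cells. After each cell was thinned to 1000 UMIs, 10.7% of control isotype monocytes and macrophages held an Ifngr2 count against 0.343% of CD8 T cells, at median depths of 3820 and 4066 UMIs among the cells kept. Among neighbours, Ifngr1 was higher in regulatory T than in CD8 T cells in 11 of 13 mice (adjusted p = 0.035) and in CD8 T cells than in cDC2s in 12 of 13 mice (adjusted p = 0.016). No neighbouring pair differed for Ifngr2.

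Jak1 was highest in T and NK cells, with 608 CPM in NK cells, 607 in gamma-delta T cells and 341 in CD8 T cells. Monocytes and macrophages had 156 and cDC1s 106, while neutrophils, at 267, lay above B cells, at 247. Jak2 followed the dendritic cells: 409 CPM in mature DCs, 236 in cDC2s and 213 in cDC1s, 67.4 in CD8 T cells and 43.8 in monocytes and macrophages. The mature DC level of Jak2 exceeded that of cDC2s in 11 of 11 mice (adjusted p = 0.017). CD8 T cells exceeded monocytes and macrophages in 13 of 14 mice (adjusted p = 0.014). Irf1 was spread over all classes, from 450 CPM in neutrophils to 73.4 in cDC1s, and Socs1 from 103 CPM in gamma-delta T cells to 18.3 in pDCs. The neutrophil mean of Irf1 joins isotype and anti-CD40 mice that ranged from 80.7 to 1137 CPM, and the B2m-null values are given by group below. No neighbouring pair differed for Irf1, Socs1 or Ifngas1, and 6 of 87 pairs differed over all 8 genes.

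With anti-CD40, calls were mostly upward: in T cells and, for low Ifng counts, in monocytes and macrophages of control tumours, and in T, NK and myeloid cells of B2m-null tumours. Under isotype antibody, Irf1 was lower in monocytes and macrophages, cDC1s and cDC2s of B2m-null tumours, and Socs1 in monocytes and macrophages. In control tumours, 9 of 46 tests over 8 classes passed an adjusted p of 0.05, all upward: Ifngas1, Ifngr1, Jak1, Jak2, Irf1 and Socs1 in CD8 T cells, Ifng in regulatory T cells and in monocytes and macrophages, and Ifngas1 in gamma-delta T cells. These 9 of 46, or 19.6%, lay near the 16.6% of all genes that passed in those classes in either direction. In CD8 T cells 44.5% of all genes passed, 21.5% upward, and 6 of the 7 members tested rose. In monocytes and macrophages 21.0% of all genes passed, 11.3% upward, against 1 of 7 members. The shares of all genes given below count either direction. In B2m-null tumours, 14 of 46 tests passed, 12 upward and 2 downward, against 13.6% of all genes. The background there was 8.12% in CD8 T cells (4 of 7 members), 7.76% in NK cells (2 of 6), 35.1% in monocytes and macrophages (5 of 7) and 7.19% in cDC2s (1 of 6). Under isotype antibody, B2m-null tumours differed from control tumours in 4 of 63 tests, all downward, against 1.78% of all genes. These were Irf1 in cDC1s, where 0.463% of all genes passed, in cDC2s (3.04%) and in monocytes and macrophages (7.17%), and Socs1 in monocytes and macrophages. Under anti-CD40, 3 of 52 tests passed, all lower in B2m-null tumours, against 6.81% of all genes: Irf1 in CD8 and CD4 T cells and Jak1 in monocytes and macrophages. The anti-CD40 effect differed between the tumour genotypes in 1 of 46 tests, against 7.37% of all genes. The comparisons share groups of mice, so their counts are not independent. Beside a call stand the settings that ended it. Among them are lanes in place of mice as the unit, with the 2 lanes of the control CD40 pool joined as 1 unit. Others are a stricter cell filter (at least 500 genes, at most 5% mitochondrial counts), finer clusters and classes set by marker-transcript gates. A further setting is cells thinned to 2000 counts, which leaves out cells under that depth and so can also lose mice.

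**Figure D2:**
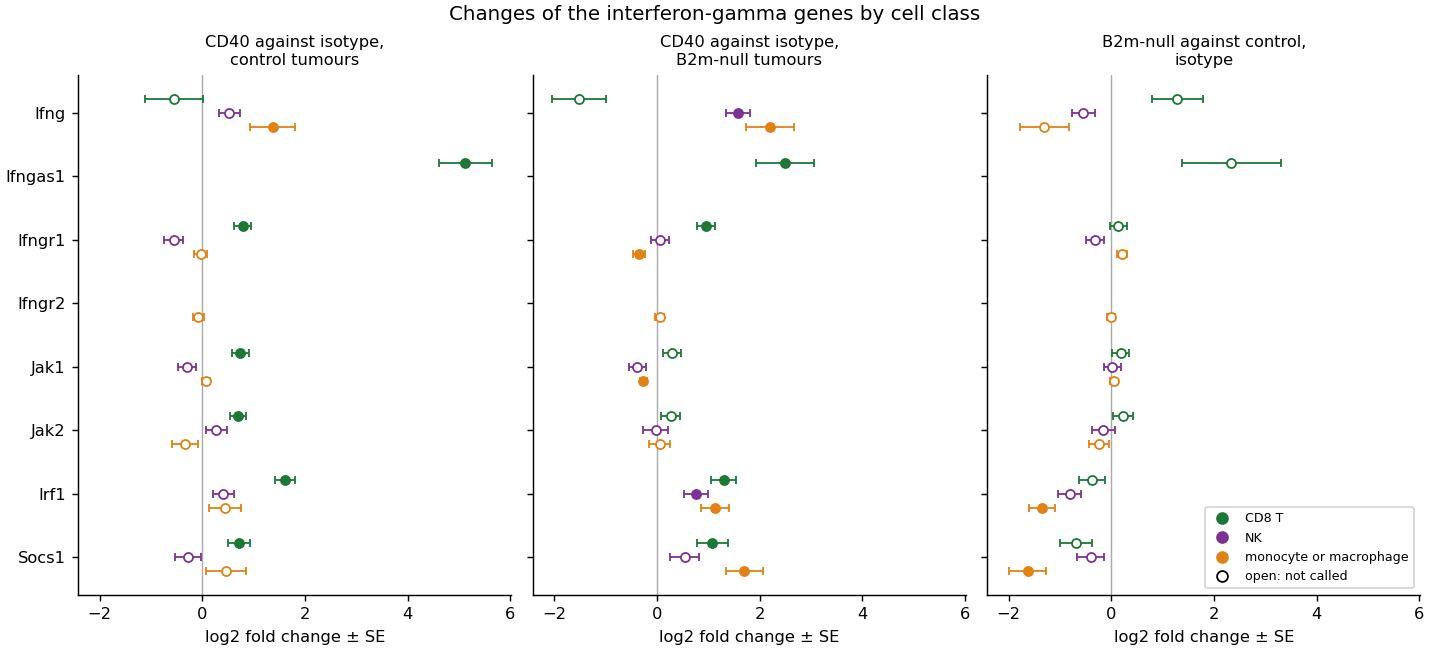
Log2 fold change (horizontal axis, with the standard error as bars) of each gene in CD8 T cells, NK cells and monocytes or macrophages for 3 comparisons; filled points passed an adjusted p of 0.05 and open points did not. In CD8 T cells Ifngas1 rose by 5.12 in control and by 2.5 in B2m-null tumours, while the Ifng changes there were -0.55 and -1.52 and did not pass.

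In CD8 T cells, which recognise peptide on MHC class I, the Ifng level in CPM did not pass the test in any comparison. The control isotype mice had 418, 487, 548, 340 and 410 CPM, and the control CD40 mice had 331 and 266. The B2m-null isotype mice with enough cells had 437, 195 and 2796 CPM, and the B2m-null CD40 mice had 450, 461, 194 and 344. Both control CD40 mice were below all control isotype mice, and 1 B2m-null isotype mouse stood far above every other mouse. The fitted change was -0.55 ± 0.56 (SE) in control tumours (adjusted p = 0.44) and -1.52 ± 0.52 in B2m-null tumours (adjusted p = 0.072). In the high mouse, B2m-null isotype mouse 5, 1 cell held 583 of the 608 Ifng counts of its 49 CD8 T cells. Without the highest cell of every mouse, an alternative added after seeing the data, the group means were 369, 284, 179 and 314 CPM in the order control isotype, control CD40, B2m-null isotype, B2m-null CD40. The change with anti-CD40 in B2m-null tumours then turned to 1.12 (adjusted p = 0.022), and without mouse 5 it was 0.58 (adjusted p = 0.30). With all cells kept it passed as a fall with the stricter cell filter (-2.54, adjusted p = 0.027), without B2m-null isotype mouse 4 (-2.09, adjusted p = 0.012), without B2m-null CD40 mouse 2 (-1.65, adjusted p = 0.046) and without the B2m-null CD40 pool of replicate 1 (-1.88, adjusted p = 0.026). Without a filter on low counts it passed too (-1.48, adjusted p = 6.6e-18), as did the change in control tumours (-0.48, adjusted p = 0.022), the isotype difference (1.27, adjusted p = 4.3e-14) and the difference of effects (-1.0, adjusted p = 0.00078). That setting used the same mice and Ifng counts and changed only which genes entered the scaling and the estimate of spread. Its p-values depend on that estimate and are not read as the spread between mice. The difference of the anti-CD40 effects turned from -0.97 (adjusted p = 0.47) to 1.5 (adjusted p = 0.021) without the highest cells, and that between the isotype groups turned from 1.29 (adjusted p = 0.35) to -1.32 (adjusted p = 0.060).

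The share of CD8 T cells with an Ifng count, after thinning to 1000 UMIs, was 25.1% ± 4.35 in control isotype mice (SD, n = 5) and 18.7% ± 4.77 in control CD40 mice (n = 2). It was 16.5% ± 8.08 in B2m-null isotype mice (n = 3) and 20.1% ± 6.94 in B2m-null CD40 mice (n = 4). The control ranges overlapped, from 20.5% to 29.3% under isotype and 15.4% to 22.1% under anti-CD40. After thinning to 2000 UMIs the shares were 42.9% (35.8% to 49.0%), 34.1%, 22.1% (20.7% to 23.6%, n = 2) and 32.2% in the same order, so the 2 isotype groups did not overlap there. The shares hold only for cells with at least that many UMIs. At 1000 UMIs 142, 3215, 25 and 261 CD8 T cells were left out in the same order, and 1089, 4916, 360 and 3759 were kept. At 2000 UMIs 344, 5771, 134 and 1647 were left out, and 887, 2360, 251 and 2373 were kept. No test was run on these shares. The shares without thinning were 50.9%, 25.9%, 36.7% and 36.2%, at median depths of 3488, 1205, 2894 and 2316 UMIs. Monocytes and macrophages, which are not a usual source, had thinned shares of 0.166%, 0.378%, 0.0409% and 0.258%.

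The clusters that made up CD8 T cells differed between groups. Cluster T5, led by Gzmf, Rgs16 and the inhibitory receptor gene Pdcd1, held 60.7% of control isotype CD8 T cells, whereas T0, T2 and T6 held 42.9%, 21.3% and 15.6% of control CD40 cells. Clusters T5, T13 and T1 held 28.6%, 22.3% and 19.5% of B2m-null isotype cells, and T1, T7 and T0 held 28.2%, 22.6% and 20.8% of B2m-null CD40 cells. Within control CD40 cells alone, T5 and T13 had the most Ifng and the least Ifngas1, and T0, T2 and T6 the least Ifng and the most Ifngas1: T5 had 886 Ifng and 3.63 Ifngas1 CPM, T13 had 630 and 3.74, T7 had 380 and 19.7, and T1 had 197 and 33.1. At the other end T6 had 191 and 51.5, T0 had 165 and 50.7, and T2 had 138 and 63.8. Within T5, Ifng was 450 CPM in control isotype cells and 886 in control CD40 cells. These values pool the cells of a group, carry no replicate error and were not tested.

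NK cells, lymphocytes that kill without antigen-specific receptors, had more Ifng with anti-CD40 in B2m-null tumours. The B2m-null isotype mice had 114, 157 and 108 CPM and the B2m-null CD40 mice 454, 392, 224 and 413, with no overlap. The change was 1.57 ± 0.23 (adjusted p = 2.6e-05), and it ended without the B2m-null isotype pool of replicate 2, which left 1 isotype mouse (2.22, adjusted p = 0.064). In the other alternatives it passed, from 1.14 (classes set by marker-transcript gates) to 1.94 (without B2m-null isotype mouse 4). In control tumours the isotype mice had 196, 222, 181, 167 and 213 CPM and the CD40 mice 335 and 208, which overlap (0.53 ± 0.21, adjusted p = 0.14). The difference between the 2 effects was 1.05 ± 0.31 and did not pass (adjusted p = 0.086). The 6 CD8 T cell markers, none at 0, summed in NK cells to 270 (167 to 345) CPM in control isotype, 1368 (1081 to 1656) in control CD40, 306 (211 to 363) in B2m-null isotype and 1291 (804 to 1738) in B2m-null CD40 mice. Of the 14 genes of a dissociation and early-response list, 3 rose in these NK cells in B2m-null tumours (Junb 1.07, Ier2 0.60 and Jund 0.57), where 7.76% of all genes passed, and none fell. The part of these markers and genes in the NK result was not tested. The thinned share of NK cells with an Ifng count was 15.3%, 19.8%, 10.9% and 20.3% in the same order (n = 5, 2, 2 and 4 mice). NK cells under 1000 UMIs, 445, 208, 65 and 28 in that order, were left out of it.

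**Figure D3:**
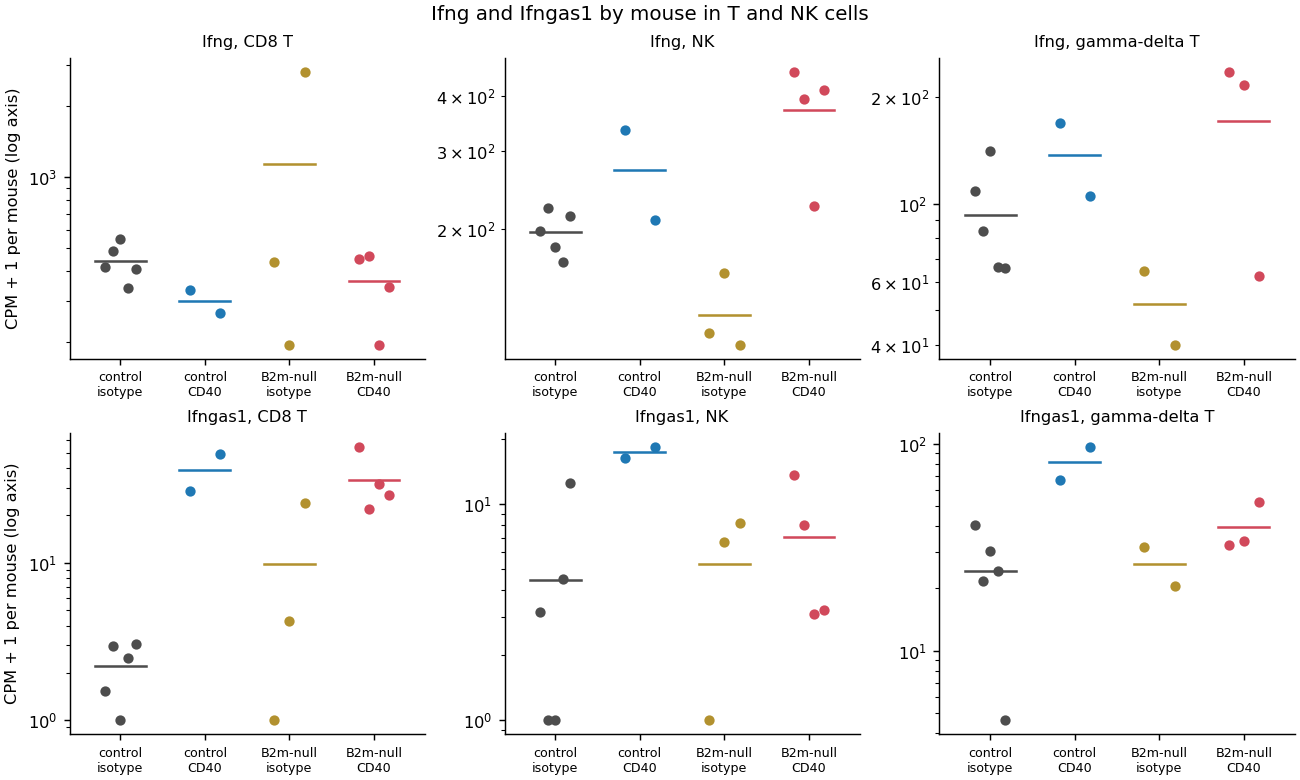
Ifng (top) and Ifngas1 (bottom) per mouse as CPM + 1 on log axes in CD8 T, NK and gamma-delta T cells; each point is a mouse and each line a group mean. For Ifng in NK cells the 4 B2m-null CD40 mice (224 to 454 CPM) lie above the 3 B2m-null isotype mice (108 to 157), and for Ifngas1 in CD8 T cells the control groups do not overlap.

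Gamma-delta T cells, innate-like T cells, had 63.5 and 38.9 Ifng CPM in B2m-null isotype and 235, 215 and 61.4 in B2m-null CD40 mice. The groups overlap through 1 CD40 mouse, and the change was 1.61 ± 0.37 (adjusted p = 0.010). The call ended without B2m-null CD40 mouse 3 (1.26, adjusted p = 0.23) or B2m-null isotype mouse 5 (1.43, adjusted p = 0.060). Without the B2m-null isotype pool of replicate 2 no isotype mouse had 20 cells, and the change could not be fitted. The call also ended without the highest cell of every mouse (1.45, adjusted p = 0.058) and with lanes as the unit (adjusted p = 0.13). Of the dissociation list 1 of 12 tested genes rose there, Junb (0.99), where 1.8% of all genes passed, and its part was not tested. In regulatory T cells, suppressive Foxp3-positive CD4 cells, the control isotype mice had 60.8, 32.4, 7.95, 16.9 and 52.5 Ifng CPM and the control CD40 mice 278 and 64.0. That change of 2.08 ± 0.54 (adjusted p = 0.020) rested on control CD40 mouse 1, without which it was 0.87 (adjusted p = 0.70). It also ended without control isotype mouse 3 (adjusted p = 0.051), either control isotype pool (0.13 and 0.061) or either control CD40 lane (0.38 and 0.15). In control CD40 mouse 1, 10 of 20 counts lay in 1 cell. Without the highest cell of every mouse the group means went from 34.1 and 171 to 23.3 and 96.0 CPM (1.82, adjusted p = 0.17), and the call also ended without mixed cells (adjusted p = 0.059) and with the stricter cell filter (adjusted p = 0.16). In the same cells and comparison 3 of 13 genes of the dissociation list rose (Egr1 1.29, Jund 1.06 and Junb 0.84), where 3.82% of all genes passed, and their part in the result was not tested. CD4 T cells were numerous enough only under anti-CD40, where they had 359 and 696 CPM in control and 356 and 465.6 in B2m-null tumours, which overlap (-0.31 ± 0.19, adjusted p = 0.33).

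In monocytes and macrophages Ifng was at most 4.52 CPM in any mouse, and these few counts were higher with anti-CD40 in both genotypes. Melanoma cells, which should lack Ifng, had 2.72 ± 2.01 CPM in control isotype (n = 5) and 2.09 ± 1.96 in control CD40 mice (n = 2). In B2m-null tumours only isotype mouse 4 (21 cells) and CD40 mouse 1 (20 cells) had enough melanoma cells, of which 0% held an Ifng count. These CPM come from cells of unlike depth, with medians of 24260 UMIs in melanoma cells and 3517 in monocytes and macrophages of control isotype mice. After thinning to 1000 UMIs, 0% of control isotype and 0.147% of control CD40 melanoma cells held an Ifng count. The shares of monocytes and macrophages were 0.166% and 0.378%. The B2m-null groups lack a comparable level. With so few counts, the values are in neither genotype read as expression by monocytes and macrophages. The control isotype mice had 1.72, 0.540, 3.75, 0.835 and 1.09 CPM and the control CD40 mice 4.52 and 3.54, overlapping at control isotype mouse 3. The B2m-null isotype mice had 0.685, 2.03, 1.26, 0.636 and 0.571 and the B2m-null CD40 mice 4.04, 2.91, 2.39 and 2.15, which do not overlap. The changes were 1.38 ± 0.44 (adjusted p = 0.034) and 2.21 ± 0.47 (adjusted p = 0.0021). The control call ended without any of 5 mice, control CD40 mouse 1 (adjusted p = 0.17) and mouse 2 (0.14) and control isotype mice 2, 4 and 5 (0.054, 0.068 and 0.075), and without the control isotype pool of replicate 2 (adjusted p = 0.16) or the second control CD40 lane (adjusted p = 0.20). The B2m-null call ended without the B2m-null isotype pool of replicate 2 (1.80, adjusted p = 0.070). Of the Ifng counts in this class, 46.2% lay in cells that also held T cell transcripts, and the CD8 T markers there summed to 19.8, 42.2, 16.4 and 34.8 CPM in the order of groups used above. The part of free RNA and of T cell transcripts in these changes was not tested. Without the mixed cells the control change was 1.13 (adjusted p = 0.099), and that call also ended with lanes (0.12), finer clusters (0.11), gates (0.068) and thinned counts (0.16).

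Summed over all haematopoietic cells of a mouse, Ifng rose with anti-CD40 in both genotypes and was lower in B2m-null than in control tumours under isotype. In such sums, fewer cells of a type and less RNA per cell cannot be told apart. The control isotype mice had 114, 55.1, 53.4, 38.6 and 36.3 CPM, the control CD40 mice 139 and 116, the B2m-null isotype mice 8.73, 8.17, 15.8, 30.6 and 18.7, and the B2m-null CD40 mice 97.1, 124, 69.1 and 101. No 2 of the compared groups overlap except control and B2m-null under anti-CD40. The change with anti-CD40 was 1.18 ± 0.40 in control (adjusted p = 0.039) and 2.61 ± 0.36 in B2m-null tumours (adjusted p = 0.00013), and the isotype groups differed by -1.74 ± 0.35 (adjusted p = 0.012). The difference between the anti-CD40 effects was 1.43 ± 0.56 and did not pass (adjusted p = 0.090). CD8 T cells made up 6.39% ± 3.6, 33.4% ± 3.91, 2.10% ± 1.97 and 22.3% ± 12.2 of haematopoietic cells in the 4 groups, and their part in the summed Ifng was not tested separately. The control call ended without any of 6 mice, namely control CD40 mouse 1 (1.10, adjusted p = 0.20) or mouse 2 (0.13) and control isotype mice 2 (0.066), 3 (0.068), 4 (0.073) or 5 (0.075). It also ended without the control isotype pool of replicate 2 (0.86, adjusted p = 0.16), the B2m-null CD40 pool of replicate 2 (adjusted p = 0.053) or the first control CD40 lane (adjusted p = 0.085). The isotype difference ended without either replicate 1 pool (-1.28, adjusted p = 0.25, for B2m-null, and -1.08, adjusted p = 0.38, for control). With lanes as the unit neither passed (adjusted p = 0.18 and 0.16).

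In these sums 4 of the 8 genes passed with anti-CD40 in control tumours against 26.4% of all genes, and 6 of 8 in B2m-null tumours against 35.8%. Between the isotype groups 3 of 8 passed against 5.97%, and between the CD40 groups 2 of 8 against 13.7%. The cell shares given with each group moved in the same comparisons. With anti-CD40 in control tumours Jund of the dissociation list rose (0.72), and Atf3 (-0.47) and Hsp90aa1 (-0.42) fell. In B2m-null tumours Hspa1b (-1.23) and Jun (-0.39) fell, and between the CD40 groups Hspa1b was lower (-1.84). The part of these shares and genes in the sums was not tested. For the difference of the anti-CD40 effects none of the 8 passed with edgeR's quasi-likelihood test, against 17.5% of all genes. At an unadjusted p under 0.05 there were 3, and DESeq2 called 1.

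In tests that had little room to pass with so few mice, the CD8 T cell share of a mouse's Ifng counts did not pass between groups. It was 46.9% ± 7.85 (n = 5), 47.6% ± 7.64 (n = 2), 42.3% ± 33.8 (n = 4) and 43.1% ± 14.8 (n = 4) in the same order. The B2m-null isotype mean rested on mouse 5, with 84.1% of its Ifng counts in CD8 T cells and nearly all of those in the 1 cell described above, and it was 28.4% without that mouse. The same mice had 6.39%, 33.4%, 2.59% and 22.3% of their cells in that class. Barcodes with mixed T cell and myeloid transcripts held 31.4%, 22.6%, 34.5% and 29.3% of the Ifng counts, and NK cells 7.28%, 6.57%, 8.32% and 7.97%. Cluster T14 held 3.64%, 15.97%, 1.69% and 7.10% of the Ifng counts from 0.225%, 1.98%, 0.142% and 0.741% of the cells. Exact permutation tests of 5 lymphocyte classes in 4 comparisons gave 20 tests, of which none passed after adjustment, 2 having an unadjusted p of 0.048, the smallest that 5 against 2 mice can give. These were CD4 T cells, with 0.171% of Ifng counts in control isotype and 3.19% in control CD40 mice, and gamma-delta T cells, with 1.93% and 0.792%. With these numbers of mice no test could pass the adjustment over 20 tests alone, so the outcome does not show equal shares.

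**Figure D4:**
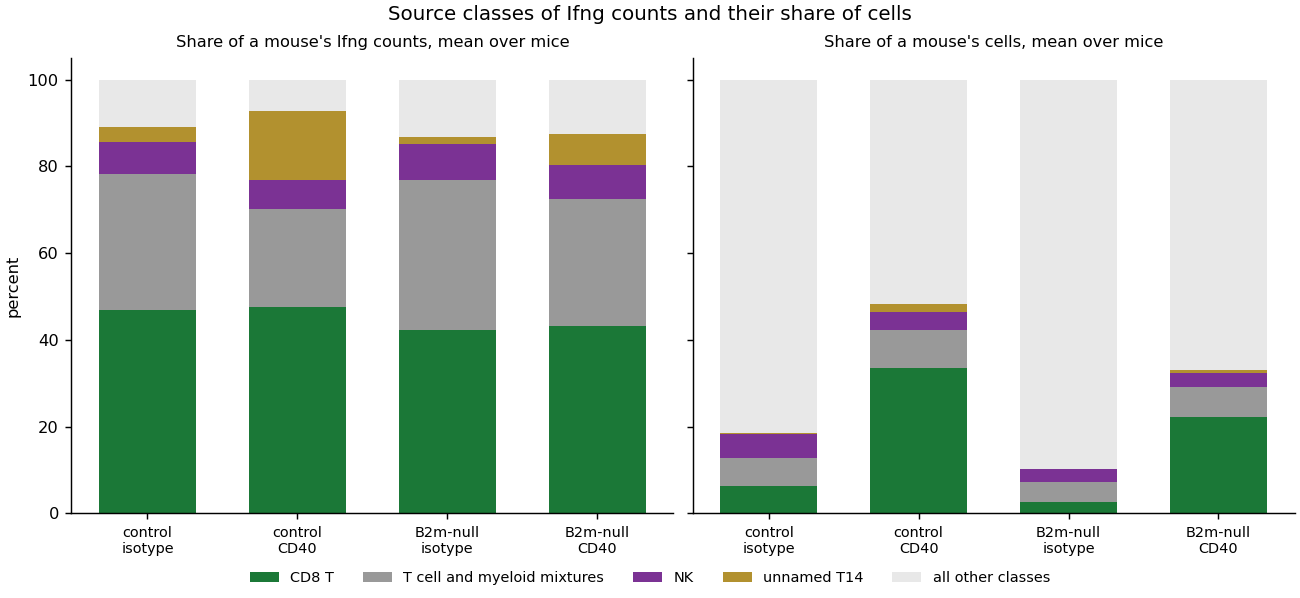
Mean percent of a mouse's Ifng counts (left) and of its haematopoietic cells (right) held by CD8 T cells, mixed T cell and myeloid barcodes, NK cells, cluster T14 and all other classes, in mice with at least 20 Ifng counts. CD8 T cells hold 42.3% to 47.6% of Ifng counts on average while making up 2.59% to 33.4% of cells, but the B2m-null isotype value is 28.4% without mouse 5, whose counts lie mostly in 1 cell.

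Ifngas1, an RNA gene known to act on Ifng transcription, rose strongly in CD8 T cells with anti-CD40. The clusters of CD8 T cells differed between the groups, and within control CD40 cells Ifngas1 differed between those clusters, as given above. No alternative held the mix of clusters fixed, for this gene or for the others in CD8 T cells, and its part in the rise was not tested. Control isotype mice had 0.527, 1.96, 0, 1.482 and 2.06 CPM, where the 0 allows up to 3.29 CPM at 3 counts, and the control CD40 mice had 27.7 and 47.9. The change was 5.12 ± 0.51 (adjusted p = 1.3e-06), the groups did not overlap, and it passed in every alternative tried. The B2m-null isotype mice had 0, 3.30 and 23.0 CPM, where the 0 allows up to 29.8, and the B2m-null CD40 mice 53.6, 21.0, 30.6 and 25.9. The groups overlap at the highest isotype mouse (2.5 ± 0.57, adjusted p = 0.013). That call ended without B2m-null isotype mouse 4 (1.13, adjusted p = 0.48), and without the B2m-null isotype pool of replicate 2, where the remaining isotype mouse had no count (adjusted p = 0.32). It also ended with stricter cells (adjusted p = 0.11), gates (1.45, adjusted p = 0.072) and thinned counts (adjusted p = 0.25). The effects did not differ between genotypes by test (-2.62 ± 1.01, adjusted p = 0.11). After thinning, 0.132% of control isotype and 3.76% of control CD40 CD8 T cells held a count, against 0.0128% and 0.0540% of monocytes and macrophages of those groups. Here too, cells under the depth were left out.

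In gamma-delta T cells Ifngas1 rose in control tumours, from 39.8, 20.7, 29.5, 23.3 and 3.61 CPM to 65.8 and 95.9 with anti-CD40, without overlap (1.86 ± 0.46, adjusted p = 0.0083). The call ended without control CD40 mouse 2 (1.53, adjusted p = 0.38), the control isotype pool of replicate 2 (1.42, adjusted p = 0.092) or the first control CD40 lane (adjusted p = 0.072), and with lanes as the unit (adjusted p = 0.11). In this comparison 4 of 12 genes of the dissociation list rose (Hspa1b 2.4, Jun 0.70, Junb 0.66 and Jund 0.54), where 4.37% of all genes passed, and their part in the result was not tested. In B2m-null tumours they had 30.9 and 19.4 CPM under isotype and 31.3, 33.1 and 51.1 under anti-CD40 (0.55 ± 0.63, adjusted p = 0.79). NK cells had too few Ifngas1 counts to be tested, with 2.16, 0, 0, 3.48 and 11.6 CPM in control isotype and 15.3 and 17.4 in control CD40 mice. Over all haematopoietic cells Ifngas1 rose by 4.27 ± 0.36 in control (adjusted p = 1.6e-06) and by 3.11 ± 0.36 in B2m-null tumours (adjusted p = 4e-05). The 9 mice on isotype antibody with a count had 0.291 to 1.35 CPM there and the 6 mice on anti-CD40 4.85 to 12.8, and both calls passed in every alternative tried.

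The ligand-binding chain Ifngr1 rose in CD8 T cells in both genotypes. The control isotype mice had 274, 365, 249, 295 and 355 CPM and the control CD40 mice 497 and 551. The B2m-null isotype mice had 268, 373 and 382 and the B2m-null CD40 mice 527, 632, 685 and 617. Neither pair of groups overlaps, and the changes were 0.79 ± 0.16 (adjusted p = 0.00066) and 0.96 ± 0.17 (adjusted p = 0.0024). The control call passed in every alternative tried. The B2m-null call ended with lanes as the unit (adjusted p = 0.084) and with thinned counts (0.54, adjusted p = 0.19). In NK cells Ifngr1 was 954, 967, 1002, 840 and 909 CPM in control isotype and 616 and 591 in control CD40 mice, but the fitted change of -0.56 ± 0.19 did not pass (adjusted p = 0.075). In monocytes and macrophages it fell in B2m-null tumours, from 123, 173, 164, 132 and 121 CPM to 97.4, 86.4, 100.3 and 96.3 (-0.35 ± 0.11, adjusted p = 0.023), without overlap. That call ended without B2m-null CD40 mouse 2 (adjusted p = 0.074), B2m-null isotype mice 2 or 3 (0.051 and 0.057), or the replicate 1 pool of either B2m-null group (both 0.18), and with lanes (0.13) or thinned counts (0.073). The rise over all haematopoietic cells in B2m-null tumours (0.40 ± 0.15, adjusted p = 0.048) ended without any of 17 of the mice, pools or lanes, and was 0.14 (adjusted p = 0.61) without the B2m-null CD40 pool of replicate 2. It also ended with the RLE scaling (adjusted p = 0.059), lanes (0.078) and the replicate block (0.086).

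The signalling chain Ifngr2 was tested in B cells, cDC1s, cDC2s, mature DCs and monocytes or macrophages and passed in none of them. Monocytes and macrophages had 110, 112, 93.0, 100.2 and 114 CPM in control isotype, 93.5 and 90.1 in control CD40, 101, 121, 116, 120 and 98.2 in B2m-null isotype, and 104, 105, 90.3 and 96.5 in B2m-null CD40 mice. All 16 mice thus lay within 90.1 to 121 CPM, and the largest of the 4 fitted changes was 0.13 ± 0.10. Over all haematopoietic cells it fell by 0.40 ± 0.11 on the log2 scale with anti-CD40 in control tumours (adjusted p = 0.018). Monocytes and macrophages, where Ifngr2 was highest, were 60.9% of control isotype and 44.0% of control CD40 cells, and the part of this share was not tested. The call ended without control CD40 mouse 1 (-0.28, adjusted p = 0.25) or the control isotype pool of replicate 2 (adjusted p = 0.072), and with lanes (adjusted p = 0.16). Under anti-CD40 the sum was higher in B2m-null tumours (0.40 ± 0.12, adjusted p = 0.036), a call that ended without either control CD40 mouse (adjusted p = 0.36 and 0.098), without B2m-null CD40 mice 1, 2 or 4 (0.084, 0.092 and 0.058), and without the B2m-null CD40 pool of replicate 1 (adjusted p = 0.23) or the second control CD40 lane (0.056), and with lanes as the unit (0.25).

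Both kinase genes rose in CD8 T cells of control tumours with anti-CD40. Jak1, the kinase bound to the Ifngr1 chain, was 255, 255, 256, 290 and 340 CPM in control isotype and 434 and 492 in control CD40 mice (0.74 ± 0.17, adjusted p = 0.0014). Jak2, bound to the Ifngr2 chain, was 51.1, 60.9, 61.4, 46.7 and 56.6 CPM against 81.8 and 91.8 (0.69 ± 0.16, adjusted p = 0.0015). In both the CD40 mice lie above all isotype mice. The Jak2 call ended without control CD40 mouse 2 (0.61, adjusted p = 0.055). The Jak1 call ended without the control isotype pool of replicate 1 (0.60, adjusted p = 0.061) and with lanes (adjusted p = 0.086). In B2m-null tumours the CD8 T cell changes were 0.29 for Jak1 (adjusted p = 0.32) and 0.27 for Jak2 (adjusted p = 0.40), and neither passed.

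In monocytes and macrophages Jak1 fell in B2m-null tumours with anti-CD40. It was 172, 183, 172, 182 and 165 CPM in B2m-null isotype and 128, 119, 131 and 124 in B2m-null CD40 mice, against 155 to 168 in control isotype and 162 and 152 in control CD40 mice. The fall of 0.26 on the log2 scale (-0.26 ± 0.07, adjusted p = 0.0055) ended without the B2m-null CD40 pool of replicate 1 (-0.20, adjusted p = 0.080) and with lanes (adjusted p = 0.13). The same class gave the 1 member call for a difference between the anti-CD40 effects (-0.34 ± 0.10, adjusted p = 0.033) and a lower level in B2m-null than in control tumours under anti-CD40 (-0.29 ± 0.08, adjusted p = 0.033). Under anti-CD40 Hspa1b of the dissociation list was lower there too (-1.67), where 10.7% of all genes passed, and its part was not tested. The difference of effects ended without B2m-null CD40 mice 1 or 2 (adjusted p = 0.054 and 0.066), control CD40 mice 1 or 2 (0.14 and 0.11) or control isotype mouse 5 (0.052), and without 5 of the pools or lanes (0.050 to 0.12). The level under anti-CD40 ended without B2m-null CD40 mice 1, 2 or 4 (0.059, 0.076 and 0.057), control CD40 mice 1 or 2 (0.19 and 0.17), or 3 of the pools or lanes (0.058 to 0.15). Both also ended with no count filter, lanes as the unit, stricter cells, gates and thinned counts (adjusted p = 0.073 to 0.27 for the difference of effects and 0.051 to 0.27 for the level).

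Over all haematopoietic cells Jak1 rose in control tumours (0.46 ± 0.12, adjusted p = 0.013) and was lower in B2m-null than in control tumours under anti-CD40 (-0.40 ± 0.13, adjusted p = 0.047). The rise ended without either control CD40 mouse (adjusted p = 0.094 and 0.091) or either control isotype pool (0.053 and 0.051), and with lanes (0.14). The lower level ended without any of 12 mice (adjusted p up to 0.24, without control CD40 mouse 1) and 4 pools or lanes, and with lanes as the unit (0.30). Jak2 fell in the sums of B2m-null tumours (-0.60 ± 0.22, adjusted p = 0.039), from 66.4, 129, 104, 114 and 49.4 CPM to 55.2, 61.6, 46.9 and 47.2, which overlap. Jak2, highest in dendritic cells, passed in no single class of B2m-null tumours. With anti-CD40 there, mature DCs went from 4.87% to 0.593% of haematopoietic cells, cDC2s from 5.05% to 0.735% and cDC1s from 2.62% to 0.287%, and the part of these shares was not tested. That call ended without B2m-null CD40 mice 1, 3 or 4, B2m-null isotype mice 2, 3 or 4 (adjusted p = 0.060 to 0.095), either B2m-null CD40 pool (0.060 and 0.28) or the B2m-null isotype pool of replicate 1 (0.21), and with lanes (0.057).

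Irf1, a transcription factor gene switched on by interferon-gamma, rose in CD8 T cells with anti-CD40 in both genotypes. The control isotype mice had 126, 68.7, 84.5, 87.5 and 118 CPM and the control CD40 mice 232 and 367. The B2m-null isotype mice had 139, 72.0 and 69.0 and the B2m-null CD40 mice 193, 160, 183 and 179. Neither pair overlaps, and the changes were 1.61 ± 0.19 (adjusted p = 6.4e-06) and 1.30 ± 0.25 (adjusted p = 0.0038). The first passed in every alternative tried, and the second ended without B2m-null isotype mouse 4 (1.11, adjusted p = 0.098) or the B2m-null isotype pool of replicate 2 (0.73, adjusted p = 0.52), with lanes (1.21, adjusted p = 0.058) and with thinned counts (1.29, adjusted p = 0.12). Within cluster T5, pooled cells had 98.8 CPM in control isotype and 131 in control CD40 tumours, and within T0 165 and 381. The 14 genes of a dissociation and early-response list summed in CD8 T cells to 3213 (2731 to 3532), 4572 (4415 to 4730), 3156 (2520 to 4099) and 3652 (3099 to 4378) CPM in the 4 groups. Of them 10 rose and 1 fell in control tumours, where 44.5% of all genes passed, and 5 rose in B2m-null tumours, where 8.12% passed, and their part in the Irf1 and Socs1 changes of these cells was not tested.

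Under anti-CD40 Irf1 was lower in CD8 and CD4 T cells of B2m-null than of control tumours. In regulatory and gamma-delta T cells, fitted too, it did not pass. CD8 T cells gave -0.68 ± 0.20 (adjusted p = 0.028). CD4 T cells had 318 and 320 CPM in control and 188 and 156 in B2m-null tumours (-0.77 ± 0.17, adjusted p = 0.0036). The CD8 T call rested on control CD40 mouse 2, without which it was -0.30 (adjusted p = 0.65), and it also ended without B2m-null CD40 mouse 4 (0.057) and with lanes (0.26), gates (0.076) or thinned counts (0.080). The CD4 T call ended without the first control CD40 lane (adjusted p = 0.063) and with gates (0.27). Leaving out any of its 4 mice, or taking lanes as the unit, left fewer than the 4 sums set as the least for a fit and was not run. Of the 14 genes of the dissociation list 3 fell in CD8 T cells in this comparison (Hspa1b -2.15, Nr4a1 -0.92 and Zfp36 -0.52; list median -0.28, where 13.5% of all genes passed). In CD4 T cells 4 of 14 fell (Hspa1b -2.69, Atf3 -1.74, Dusp1 -0.65 and Jund -0.44; list median -0.34, where 9.83% of all genes passed), and none rose in either. Their part in the lower Irf1 was not tested.

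In myeloid cells under isotype antibody, Irf1 was lower in B2m-null tumours in all 3 classes where it passed. Monocytes and macrophages had 172, 195, 148, 102 and 110 CPM in control isotype and 49.8, 47.7, 75.8, 92.1 and 30.4 in B2m-null isotype mice, without overlap (-1.35 ± 0.26, adjusted p = 0.0076). cDC2s, which present antigen mainly to CD4 T cells, had 143, 179, 219, 120 and 118 against 38.9, 52.1, 62.3, 95.6 and 65.0 CPM, also without overlap (-1.11 ± 0.21, adjusted p = 0.0024). cDC1s, which cross-present antigen to CD8 T cells, had 132, 130, 42.7, 76.7 and 97.5 against 30.5, 42.6, 46.7, 44.7 and 27.3, overlapping at control isotype mouse 3 (-1.4 ± 0.25, adjusted p = 0.0019). No single mouse ended these 3 calls. The monocyte or macrophage call ended without the B2m-null isotype pool of replicate 1 (-1.26, adjusted p = 0.13) or the control isotype pool of replicate 1 (-0.89, adjusted p = 0.28). The cDC2 call ended without the latter (-0.76, adjusted p = 0.26) and the cDC1 call without the B2m-null isotype pool of replicate 2 (-1.41, adjusted p = 0.089). With cells thinned to 2000 counts and those under that depth left out, neither the cDC2 nor the cDC1 change passed edgeR's quasi-likelihood test. The cDC2 change was -0.89 (adjusted p = 0.18) and the cDC1 change -1.24 (adjusted p = 0.22). At that depth 3 B2m-null isotype mice kept enough cDC1s, so fewer mice and the lower depth cannot be told apart there. The cDC2 call also ended with gates (-0.87, adjusted p = 0.40), and the monocyte or macrophage call with lanes as the unit (-1.37, adjusted p = 0.059).

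Irf1 was also lower within each of clusters 1 to 5 of monocytes and macrophages, as values of pooled cells without a test. They had 124, 95.8, 155, 92.4 and 302 CPM in control isotype and 46.1, 32.7, 78.4, 38.4 and 154 in B2m-null isotype tumours. The other main clusters, 8 and 9, held 0.953% and 1.65% of the control isotype cells of the class and 0.384% and 0.372% of the B2m-null isotype cells. With anti-CD40 cluster 8 held 34.9% of the control cells and cluster 9 held 22.9% of the B2m-null cells. The dissociation list in monocytes and macrophages summed to 8142 (7113 to 9821) and 8456 (5847 to 11900) CPM in these groups, and none of its 14 genes passed.

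With anti-CD40 in B2m-null tumours, Irf1 rose in myeloid and NK cells. B2m-null CD40 mice had 134, 131, 83.9 and 104 CPM in monocytes and macrophages, overlapping the isotype mice at 92.1 (1.13 ± 0.27, adjusted p = 0.0038), and the call ended without the B2m-null isotype pool of replicate 1 (1.06, adjusted p = 0.054). In cDC2s they had 241, 114 and 106 CPM, all above the isotype mice (1.03 ± 0.30, adjusted p = 0.037). That call ended without any B2m-null CD40 mouse (adjusted p = 0.088 to 0.17), without B2m-null isotype mice 1, 2, 3 or 5 (0.056 to 0.071), and without either B2m-null CD40 pool (0.17 and 0.22) or the B2m-null isotype pool of replicate 1 (0.17), and with stricter cells (0.16), finer clusters (0.12) or thinned counts (0.55). NK cells had 85.9, 114 and 71.7 CPM under isotype and 134, 133, 120 and 206 under anti-CD40 (0.77 ± 0.24, adjusted p = 0.042). That call ended without B2m-null CD40 mouse 4 (0.49, adjusted p = 0.24), B2m-null isotype mice 1 or 5 (0.069 and 0.22), control CD40 mouse 1 (0.050) or control isotype mouse 3 (0.053). It ended without the replicate 2 pool of B2m-null CD40 (0.28), either B2m-null isotype pool (0.069 and 0.50) or either control isotype pool (0.068 and 0.052). It also ended with lanes (0.16), stricter cells (0.052), gates (0.17), thinned counts (0.39) and at least 50 cells per mouse (0.069). Neutrophils had 217 and 80.7 CPM under isotype and 1013, 1137, 298 and 510 under anti-CD40 (2.18 ± 0.54, adjusted p = 0.045), a call that ended without B2m-null isotype mouse 4 or 5 (adjusted p = 0.051 and 0.38), B2m-null CD40 mice 1, 2 or 4 (0.073, 0.072 and 0.067) or control isotype mice 2 or 4 (0.051 and 0.052). It also ended without the B2m-null CD40 pool of replicate 1 (0.091), the control isotype pool of replicate 1 (0.051) or the first control CD40 lane (0.054), with stricter cells (0.21) and with the replicate number as a block (1.80, adjusted p = 0.067). Without the B2m-null isotype pool of replicate 2 no isotype mouse had 20 neutrophils, and the change could not be fitted. In this comparison the dissociation list had Hspa1b (-1.15) and Jun (-0.31) lower in monocytes and macrophages, 2 of 14, where 35.1% of all genes passed, and Hspa1b (-4.79), Hspa1a (-3.5) and Jun (-0.67) lower in cDC2s, 3 of 14, where 7.19% passed. The 3 list genes that rose in NK cells are given above, and none of 13 passed in neutrophils. The part of these genes in the Irf1 changes was not tested.

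In control tumours the myeloid Irf1 levels with anti-CD40 were 189 and 174 CPM in monocytes and macrophages (0.45 ± 0.31, adjusted p = 0.32) and 257 and 221 in cDC2s (0.68 ± 0.30, adjusted p = 0.30). The anti-CD40 effects on Irf1 did not differ between genotypes by test in these classes (0.68 ± 0.42, adjusted p = 0.27, and 0.35 ± 0.42, adjusted p = 0.73). Over all haematopoietic cells Irf1 was lower in B2m-null isotype than in control isotype tumours (-1.15 ± 0.21, adjusted p = 0.0088) and rose with anti-CD40 in B2m-null tumours (1.10 ± 0.22, adjusted p = 0.0016). The mice had 179, 196, 153, 108 and 126 CPM in control isotype, 60.6, 60.4, 84.4, 105 and 39.3 in B2m-null isotype and 146, 146, 115 and 124 in B2m-null CD40 tumours, with no overlap in either comparison. The isotype difference ended without either replicate 1 pool (-1.09, adjusted p = 0.21, for B2m-null, and -0.77, adjusted p = 0.39, for control), and with lanes (0.10).

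**Figure D5:**
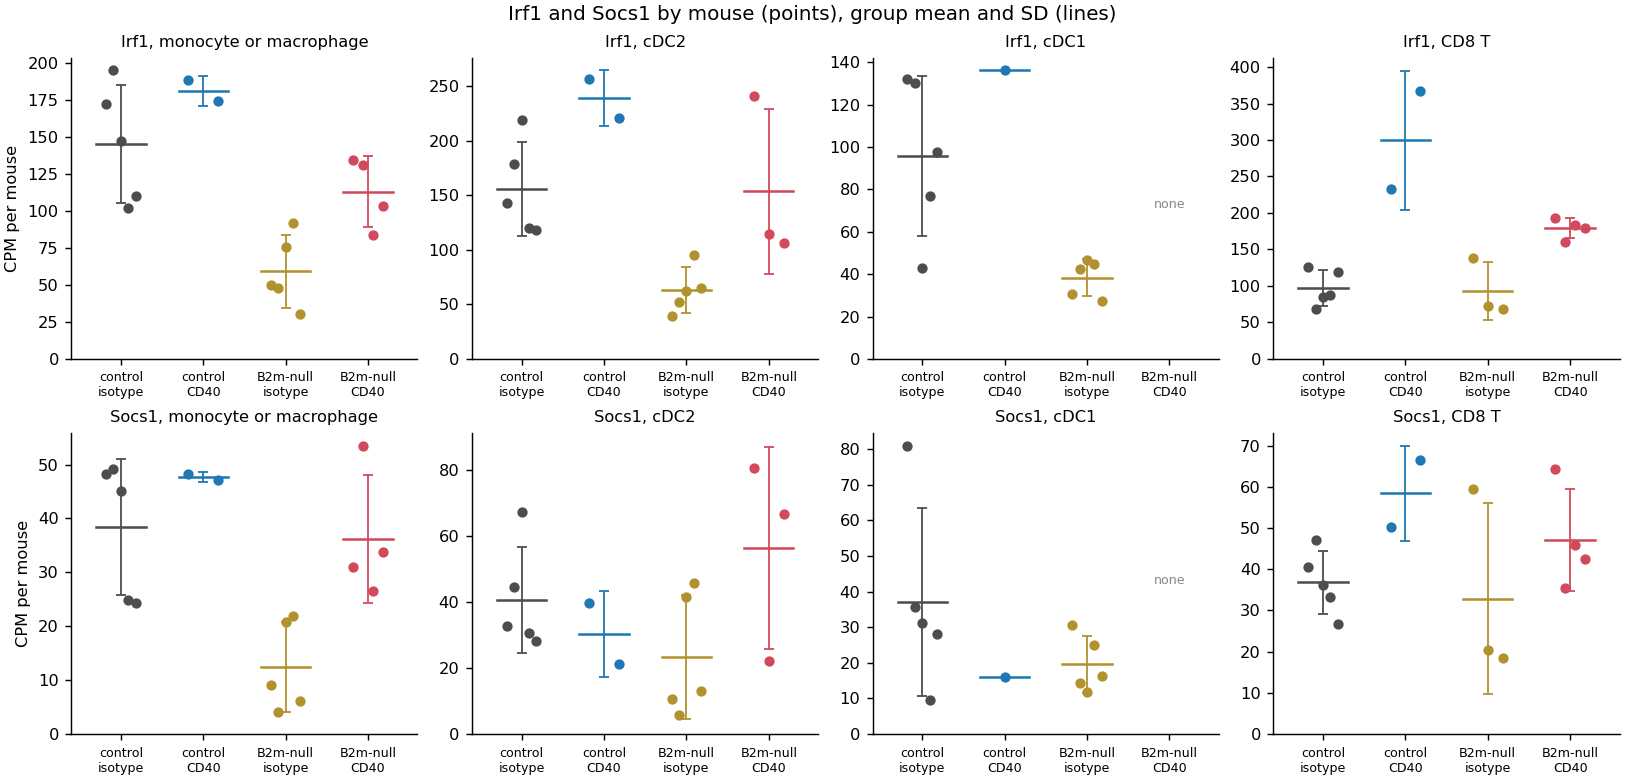
Irf1 (top) and Socs1 (bottom) in CPM per mouse (points) with the group mean and SD (lines) in monocytes or macrophages, cDC2s, cDC1s and CD8 T cells; classes with no mouse of 20 cells are marked none. In monocytes and macrophages the B2m-null isotype mice lie below all control isotype mice for Irf1 (30.4 to 92.1 against 102 to 195 CPM) and for Socs1 (4.06 to 21.9 against 24.3 to 49.2 CPM).

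Socs1, the inhibitor of JAK kinases, followed the same order of groups as Irf1 in monocytes and macrophages. In control isotype mice it was 48.3, 49.2, 45.1, 24.9 and 24.3 CPM and in B2m-null isotype mice 9.02, 4.06, 20.8, 21.9 and 6.19, without overlap (-1.63 ± 0.35, adjusted p = 0.013). The B2m-null CD40 mice had 31.1, 53.4, 26.5 and 33.7, all above the B2m-null isotype mice (1.70 ± 0.37, adjusted p = 0.0021), and this rise passed in every alternative tried. The control CD40 mice, at 48.3 and 47.1, lay within the range of the control isotype mice (0.46 ± 0.39, adjusted p = 0.44). The difference between the anti-CD40 effects did not pass (1.25 ± 0.55, adjusted p = 0.12). The isotype difference ended without the replicate 1 pool of B2m-null isotype (-1.48, adjusted p = 0.15) or of control isotype (-1.0, adjusted p = 0.36), and with lanes (adjusted p = 0.059). In pooled cells of clusters 1 to 5, Socs1 was 37.3, 29.7, 43.0, 15.9 and 47.7 CPM in control isotype and 9.37, 7.96, 19.4, 6.19 and 31.9 in B2m-null isotype tumours.

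In CD8 T cells Socs1 was 40.6, 47.1, 36.2, 33.4 and 26.8 CPM in control isotype and 50.2 and 66.6 in control CD40 mice, without overlap (0.71 ± 0.21, adjusted p = 0.0098). It was 59.5, 20.5 and 18.4 in B2m-null isotype and 64.3, 35.4, 45.9 and 42.5 in B2m-null CD40 mice, which overlap (1.08 ± 0.31, adjusted p = 0.035). The control call ended without control CD40 mouse 2 (0.49, adjusted p = 0.23) or the control isotype pool of replicate 2 (0.54, adjusted p = 0.076), with lanes (adjusted p = 0.065) and with gates (0.49, adjusted p = 0.093). Without the B2m-null isotype pool of replicate 2, which left 1 isotype mouse, the B2m-null value was -0.024 (adjusted p = 0.9986). That call also ended without B2m-null isotype mouse 4 (0.68, adjusted p = 0.52) or mouse 5 (1.02, adjusted p = 0.088), B2m-null CD40 mice 3 or 4 (0.070 and 0.066), the B2m-null CD40 pool of replicate 2 (1.04, adjusted p = 0.14) or the control isotype pool of replicate 1 (0.055), and with gates (0.31, adjusted p = 0.56), lanes (0.19), stricter cells (0.064), finer clusters (0.058) or thinned counts (0.10). Socs1 passed in no other class. Over all haematopoietic cells it was lower in B2m-null than in control isotype tumours (-1.20 ± 0.30, adjusted p = 0.030) and rose with anti-CD40 in B2m-null tumours (1.31 ± 0.31, adjusted p = 0.0042). The isotype difference ended without B2m-null isotype mice 1, 2 or 5 (adjusted p = 0.092, 0.058 and 0.051), control isotype mice 1, 2 or 3 (0.074, 0.059 and 0.073), or the replicate 1 pool of B2m-null isotype (0.28) or control isotype (0.57), and with lanes (0.11).

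Other genes of the pathway were read from 3 lists. Interferon-gamma target genes (25 genes) include the chemokines Cxcl9 and Cxcl10, the guanylate-binding proteins and immunity-related GTPases that attack intracellular parasites, and antigen-processing genes. In monocytes and macrophages 16 of 24 tested targets were lower in B2m-null than in control isotype tumours and none higher, with a median change of -0.99 against 0.01 over all genes, of which 7.17% passed. The largest falls were -1.70 for Cxcl10, -1.70 for Gbp4, -1.65 for Cxcl9 and -1.41 for Iigp1. With anti-CD40 in B2m-null tumours, 23 of 24 rose (median 1.33, all genes -0.02, where 35.1% of all genes passed), led by the nitric oxide synthase gene Nos2 (3.69), the complement inhibitor gene Serping1 (2.07), Cxcl9 (2.06) and Gbp4 (1.79). In control tumours 4 of 24 rose (Nos2 2.08, Irgm2 0.97, Cd274 0.93 and Wars 0.48; median 0.51), against 21.0% of all genes. For the difference of effects 6 of 24 passed, all upward, with Cxcl10 (2.49) and the immunoproteasome genes Psmb8 (1.66) and Psmb10 (1.32) first, against 17.6% of all genes. In cDC2s 13 of 22 were lower between the isotype groups (median -0.82, where 3.04% of all genes passed) and 13 of 22 rose with anti-CD40 in B2m-null tumours (median 0.86, where 7.19% passed), against none in control tumours, where 2.47% of all genes passed. In cDC1s 2 of 21 were lower between the isotype groups, Cxcl10 (-2.37) and Irgm1 (-0.98), where 0.463% of all genes passed.

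In CD8 T cells 11 of 20 targets rose with anti-CD40 in control tumours (median 0.58; Iigp1 2.23, Igtp 1.66, Irgm1 1.61, Gbp2 1.55), where 44.5% of all genes passed in either direction. In B2m-null tumours 9 of 20 rose (median 0.55; Iigp1 3.72, Gbp2 1.96, Cxcl9 1.91, Igtp 1.4), where 8.12% of all genes passed. NK cells had 7 of 20 raised in B2m-null tumours (median 0.62; Cxcl10 1.80, Gbp2 1.46, Psmb8 1.05, Igtp 0.99), where 7.76% of all genes passed, and 1 of 20, the MHC class I activator gene Nlrc5 (0.81), in control tumours, where 6.57% passed. No target fell in these 4 comparisons. Several of these genes also respond to type I interferon, which these counts do not separate.

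The second list holds 15 genes of signal transduction and its brakes. With anti-CD40, 6 of 15 rose in CD8 T cells of control tumours, among them Socs3 (1.73), Irf9 (1.41) and Stat2 (0.80), and 3 fell, namely Irf8 (-1.52), Stat3 (-0.78) and the phosphatase gene Ptpn6 (-0.44), where 44.5% of all genes passed. Of the 15, 5 were lower in monocytes and macrophages between the isotype groups, including Socs3 (-0.75), Nmi (-0.75) and Ptpn6 (-0.71), where 7.17% of all genes passed. In the same cells, 6 of 15 rose with anti-CD40 in B2m-null tumours, where 35.1% of all genes passed, while in control tumours 2 fell, Stat2 (-0.67) and Nmi (-0.60), where 21.0% passed. The difference of effects passed for 5 of 15, all upward, against 17.6% of all genes.

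The third list holds 18 regulators of Ifng in lymphocytes. With control tumours, 9 of 16 rose with anti-CD40 in CD8 T cells, led by the RNA-binding protein genes Zfp36l2 (1.79) and Zfp36 (1.10), whose proteins limit cytokine transcripts, and by the transcription factor genes Runx3 (1.07) and Nfatc2 (0.92), where 44.5% of all genes passed in either direction. Zfp36 also belongs to the dissociation list. In B2m-null tumours the interleukin-18 receptor gene Il18r1 rose (1.11) and Eomes fell (-1.18), 2 of 16 tested, where 8.12% of all genes passed. The effects differed for 3 of 16, Eomes (-1.71), Zfp36l2 (-1.34) and Runx3 (-1.12), where 8.88% of all genes passed. In NK cells 15 were tested, and 6.57% of all genes passed in control and 7.76% in B2m-null tumours. The interleukin-12 receptor gene Il12rb1 rose in control (0.89) and B2m-null tumours (1.14). The signal transducer gene Stat4 (-0.78 and -0.77), Zfp36l1 (-0.64 and -0.81) and Eomes (-0.62 and -1.01) fell in both. Il12rb2 fell (-0.98) in control tumours and Bhlhe40 rose (0.89) in B2m-null tumours.

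The genes with the pattern most like a member were found by Pearson correlation of log2(CPM + 1) over 141 mouse and class sums among 8311 genes; sums of a mouse share a lane and classes share a depth, so the values are descriptions. For Ifng they were Thy1 (0.87), Nkg7 (0.86), Fhl2 (0.86), Prf1 (0.86) and Ms4a4b (0.85). For Ifngas1 they were Tcrg-C2 (0.74), Klra6 (0.73), Emb (0.73), Ehd3 (0.72) and Samd3 (0.72). The leading genes for Irf1 were lower in likeness: H2-D1 (0.69), Ifi47 (0.63), Btg1 (0.62), Ube2d3 (0.60) and Pnrc1 (0.59). For Socs1 they were Igtp (0.54), Icam1 (0.52), Gbp4 (0.51), Dusp5 (0.50) and H2-Q6 (0.50).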

How the data were processed

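Single-cell 3' RNA libraries of tumour immune cells were deposited as counts of UMIs per gene and barcode, with hashtag counts in the same matrices. Per the submitters' processing notes the authors used bcl2fastq 2.20.0.422 and Cell Ranger 3.0.0 with the mm10 build; the counts are raw and not normalized. Here, barcodes were given to a mouse by hashtag (at least 20 hashtag counts, posterior of at least 0.9), double-hashtag barcodes were removed, and cells with fewer than 200 genes or over 10% mitochondrial counts were left out. Doublets of 1 mouse cannot be found by hashtag, and no expression-based caller was run. Cells were clustered with scanpy 1.11.5 and leidenalg 0.10.2 without the 8 genes or the gene lists, and named from marker genes. Counts were summed per mouse and class, filtered with filterByExpr, scaled by TMM and tested with edgeR 4.0.16 (quasi-likelihood test, two-sided), with Benjamini-Hochberg adjustment over all genes of a class and contrast. All groups entered 1 fit. Fold changes are log2, positive where the first-named condition is higher, and the call threshold is an adjusted p of 0.05. Exact permutation tests, two-sided, used scipy 1.17.1. DESeq2 1.42.0 was an alternative. The edgeR step was tested on simulated data.

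Lanes held 45985739 to 99264875 counts; UMIs limit amplification bias, and CPM levels are not divided by transcript length, so levels are not compared between genes. Where a mouse had no count, the limit is 3 counts of its total, for counting error only. The genes named are the 8 in every class tested, of each list at most the 4 largest changes per direction among those that passed, and the 5 most correlated genes of Ifng, Ifngas1, Irf1 and Socs1. The genes and lists were chosen with earlier results of these data known. Alternatives were another scaling, another pseudocount, no count filter, DESeq2, lanes as the unit, stricter cells, finer clusters, marker-transcript gates, removal of mixed cells, thinned counts, at least 50 cells, a replicate block, and leaving out each mouse, pool or lane. Removal of the cell with most Ifng counts was chosen after seeing the data. Promoter sequences are RefSeq's for GRCm38.p6, the assembly that mm10 names. The values of 1 gene of the signalling list are not reported here.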

Additional observations from a re-analysis of the deposited data

Results flagged for a closer look

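Of 65 groups of 4 or more mice tested for a sample far from the others, 2 were flagged, where chance flags about 1 in 20. Both were control isotype mouse 1 in the sums over all haematopoietic cells: Ifng was 114.3 CPM against 55.1 in the next mouse, and Ifngas1 was 1.35 CPM against 0.551. The anti-CD40 effect on Jak1 in monocytes and macrophages differed between the tumour genotypes by -0.34 (adjusted p = 0.033, edgeR's quasi-likelihood test), the only 1 of 46 tests of such a difference that passed. Cluster T14, which was given no class name and is led by Ccl1, Foxp3 and Penk, held Ifng at 934.5 CPM. Fibroblasts, outside the immune classes, had 132.6 CPM of Ifngr1.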

How the results depend on the processing

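Of 46 single calls, 9 passed in every alternative run: Ifngas1, Ifngr1 and Irf1 in control CD8 T cells, Socs1 in B2m-null monocytes and macrophages, and in the haematopoietic sums Ifngas1 in both genotypes and Ifng, Irf1 and Socs1 in B2m-null tumours. Of the 46, 1 reversed: Socs1 in B2m-null CD8 T cells became -0.024 without the B2m-null isotype pool of replicate 2 (range on leaving out 1 mouse, pool or lane -0.024 to 1.29), which left 1 isotype mouse. By class, the anti-CD40 count in control tumours was 9 and became 5 with lanes as the unit. In B2m-null tumours it was 14 and became 9 with stricter cells, 9 with marker-transcript gates, 9 with at least 50 cells and 5 with thinned counts. Between the isotype groups it was 4 and became 2 with thinned counts. Between the CD40 groups it was 3 and became 0 with lanes, gates or thinned counts. For the difference of effects it was 1 and became 2 without a count filter, 2 with DESeq2, 2 without the top Ifng cell and 0 with stricter cells or thinned counts. In the sums, lanes gave 1 call in control tumours, 0 between the isotype groups and 0 between the CD40 groups, and DESeq2 gave 1 for the difference of effects. Leaving out 1 mouse, pool or lane gave 5 to 12, 8 to 15, 1 to 5, 0 to 4 and 0 to 3 calls by class, 1 to 5, 4 to 7, 0 to 3, 0 to 4 and 0 to 2 in the sums, and 0 to 0 for Ifng source shares, whose exact tests have few mice, so that this 0 says nothing on stability. The 6 class orders called became 0 with at least 50 cells or gates, though for Ifng in NK over gamma-delta T cells every mouse kept the direction. Ifng in CD8 T cells reversed. For the comparison written as Ifng, CD8 T, CD40 against isotype in B2m-null tumours, it became 1.12 without the top cells, 0.58 without B2m-null isotype mouse 5 and 0.066 without its pool, and leaving out 1 mouse, pool or lane gave -2.09 to 0.58. Between the isotype groups it became -0.14 with lanes, -1.32, -0.81 and -0.27 (range -0.81 to 1.86), and between the CD40 groups -0.054 without the B2m-null CD40 pool of replicate 1 (range -0.054 to 0.60). For Ifng, CD8 T, difference of the CD40 effects between tumour genotypes, it became 0.49 with lanes, 1.5, 1.13 and 0.59 (range -1.54 to 1.13). Except for the top cell, which holds most counts of mouse 5, the cause was not tested. With the replicate number as a block, 14 of 43 tests passed for anti-CD40 in B2m-null tumours and 4 of 61 between the isotype groups. In the sums 5 and 3 of 8 passed. The shares of all genes given above belong to the fit without the block, so these counts have no such share beside them. The block ended 2 calls, Irf1 in neutrophils (1.80, adjusted p = 0.067) and Ifngr1 in the B2m-null sums (0.36, adjusted p = 0.086), and let Ifng in B2m-null CD8 T cells pass as a fall (-1.61, adjusted p = 0.038). Same-numbered pools correlated at -0.0541, 0.104 and 0.288 over 7970 genes, so the numbers were not taken to pair samples. Depth limits Ifngas1 outside T cells and Ifng in myeloid cells, where few counts stand behind each value.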
